A study of Mus musculus with 36 samples.

Results

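Double-mutant and control submandibular glands of mice at postnatal day 40 (P40), the early tumor stage, were compared by single-cell RNA sequencing. The glands were chosen by their titles, which gave 7 double-mutant and 6 control libraries of the 26 Drop-seq glands in a series of 36 samples. Together they held 12117 of the 23346 Drop-seq cells that had at least 100 genes and under 15% of their unique molecular identifiers (UMIs, the tags that count single transcripts) from mitochondrial genes. The control genotype was K14-Cre with R26-EYFP, a reporter that Cre switches on. Double-mutant mice carried both of these and, in addition, a floxed β-catenin gain-of-function allele and a floxed Bmpr1a loss-of-function allele. All mice were C57BL/6, both sexes were present in each genotype, and each library came from 1 gland. The K14 promoter drives Cre in keratin 14-expressing epithelial cells, so that the alleles are recombined in those cells and their progeny and not in the stroma or in immune cells. Cells were dissociated, sorted as live (DAPI-negative) single cells and fixed in methanol before capture in droplets.

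The submandibular gland makes saliva in acinar cells, which discharge into ducts whose granular cells secrete kallikreins and growth factors, and both are surrounded by keratin 14-positive basal and myoepithelial cells. Wnt ligands stabilize β-catenin, which then enters the nucleus and switches on target genes together with TCF/LEF factors, among them secreted and intracellular inhibitors that dampen the same pathway. Bone morphogenetic proteins (BMPs) signal through receptors such as Bmpr1a to Smad proteins, which induce the Id genes, and the pathway restrains growth of many epithelia.

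Between 803 and 1147 cells were kept per control gland and between 710 and 1089 per double-mutant gland. Total UMIs ranged from 2324335 to 6994504 in control and from 650301 to 6512411 in double-mutant glands. Medians of UMIs per cell were 3022.5 ± 1350 for control and 1651 ± 1142 for double-mutant glands (mean ± SD over glands, n = 6 and 7). None of 6 measures of depth and RNA quality passed the threshold of 0.05 after adjustment, and the closest was the share of UMIs from immediate early genes, at 0.692% ± 0.158 and 1.09% ± 0.264 (two-sided exact permutation test, p = 0.00932, adjusted p = 0.0559). Over pairs of the 13 libraries, at most 1 cell barcode was shared. Double-mutant replicate 1 was labelled male and had 591 Xist UMIs and 1 Y-linked UMI, which goes against its label, whereas the sex genes of the other 12 libraries matched theirs. A P90 double-mutant library of the same batch, labelled female, had 0 Xist and 194 Y-linked UMIs, and whether these libraries were exchanged was not tested. Libraries were made in 4 batches, and batch B11 (double-mutant replicates 1 to 3) held no control gland. Double-mutant replicates 2 and 5 had the lowest totals and the most immune-like cells, and double-mutant replicate 3 had the highest median of UMIs per cell of its group (4036).

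The question of the first comparison was which transcripts differed between the genotypes once the UMIs of all cells of a gland were summed. Double-mutant glands had higher levels of Wif1, a secreted inhibitor that binds Wnt ligands, of Slpi, a secreted protease inhibitor, of the plasma cell genes Iglc2 and Mzb1, of Il1rn, the interleukin-1 receptor antagonist, and of the interferon-induced genes Irf7, Mx2 and Ifi44. Of 9735 genes tested, 17 were called (0.175%) by edgeR's quasi-likelihood test (adjusted p under 0.05 after Benjamini and Hochberg, sex as a covariate), of which 16 rose (0.164%) and 1 fell (0.0103%). At an unadjusted p under 0.05 there were 2262 genes (23.2%). In sums over a gland, fewer cells of a type and less RNA per cell cannot be told apart. Leaving out 1 gland gave between 6 calls (without double-mutant replicate 5 or 6 or control replicate 4) and 267 (without double-mutant replicate 3), with 7 without double-mutant replicate 1. None of the 17 genes passed with batch as a covariate, although all 17 kept their sign. In batches B12 to B14, which held both genotypes, 15 of the 17 could be tested, all 15 kept their sign and 4 passed (Wif1, Ftl2, Iglc2 and Il1rn).

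Ctnnb1, which encodes β-catenin, and Bmpr1a check the labels only in part, because 3′ tags do not tell recombined from intact alleles. Ctnnb1 levels were 40.5, 60.7 and 83.4 CPM (UMI counts scaled to a common library total with edgeR's TMM factors) in the lowest, median and highest control gland, and 44.9, 65.8 and 113 CPM in the double-mutant glands. The groups overlapped, with a log2 difference (double-mutant minus control) of 0.28 ± 0.25 (SE; adjusted p = 0.491). For Bmpr1a the corresponding levels were 16.6, 19.5 and 23.2 CPM against 13.01, 20.1 and 23.2 CPM, with a log2 difference of -0.10 ± 0.15 (adjusted p = 0.701), and the sign of this difference turned to 0.61 when glands were scaled by library totals alone. That scaling raised the median of all genes from -0.00 to 0.73 on the log2 scale, so differences here are relative to the TMM scaling. Cre was at 1.01 to 10.6 CPM in control and 0.813 to 3.54 CPM in double-mutant glands (log2 difference -0.89 ± 0.52, adjusted p = 0.295). EYFP was listed at 0 in control replicate 5, although its mice carried the reporter, and at 56.2 to 124 CPM in the other 5 control glands. In double-mutant glands EYFP ranged from 0.809 to 89.0 CPM, and replicates 1, 4 and 7 lay at 6.36, 2.91 and 0.809 CPM (log2 difference -0.80 ± 0.90, adjusted p = 0.589).

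Wif1 (chr10:121034004-121100642, mm10) was the Wnt gene called by edgeR. It lay at 0, 0.120 and 0.762 CPM in the lowest, median and highest control gland and at 0.884, 21.5 and 132 CPM in the double-mutant glands. The groups did not overlap, but double-mutant replicate 3, the lowest, stood just above the highest control gland. The log2 difference was 7.36 ± 1.16 (adjusted p = 0.0161), and in batches B12 to B14 it was 6.20. In 6 of the 13 fits that left out 1 gland Wif1 did not reach the minimum count for testing, and it passed in 5 of the other 7. Of its 866 UMIs in double-mutant glands, 77.4% were in basal-like cells, which made up 7.89% of the cells, and 7.62% were in fibroblast-like cells. Basal-like cells of control glands had no Wif1 UMI among 198499, so that the double-mutant level in this class, 1105 CPM, was at least 73.1-fold higher (against a floor of 3 counts over the control group).

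Of the 28 Wnt feedback inhibitors and targets, 16 were tested, and edgeR called 1 higher (Wif1, beside 0.164% of all tested genes) and none lower, with a median log2 difference of 0.99 beside -0.00 for all genes. DESeq2 called 8 of the 16 higher and 0 lower, beside 619 calls in either direction over all 9735 tested genes. Nkd1, an intracellular inhibitor of the pathway, was at 0, 0.168 and 3.43 CPM in control and 2.91, 5.30 and 20.7 CPM in double-mutant glands (log2 difference 3.15 ± 0.76, adjusted p = 0.082). Dkk3, a relative of the Dickkopf Wnt inhibitors, was at 0 to 1.85 CPM and 1.59 to 11.2 CPM (log2 difference 2.67 ± 0.64, adjusted p = 0.082). Both overlapped between the genotypes and did not pass by edgeR. Basal-like cells held 44.2% of the Nkd1 and 46.2% of the Dkk3 UMIs of double-mutant glands and no UMI of either gene in control glands. Among 12 tested Wnt ligands, receptors and transducers edgeR called none and DESeq2 1 higher (median 0.30). The smallest p by edgeR belonged to the receptor Fzd1 (log2 difference 1.63 ± 0.54, adjusted p = 0.130). The 12 other genes of the first list and 17 of the second were too low to test.

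No gene of the BMP lists was called by edgeR, whereas DESeq2 called 3 ligands, receptors or antagonists higher and, of the BMP response, 2 higher and 1 lower. Of 8 tested ligands, receptors and antagonists the median log2 difference was 1.0, led by the antagonists Fst, which binds activins and BMPs (2.37 ± 0.58, adjusted p = 0.083), Sostdc1 (3.14 ± 0.78, adjusted p = 0.0858) and Fstl1 (1.36 ± 0.37, adjusted p = 0.0941). Sostdc1, which binds BMPs and also acts on Wnt signaling, was at 0, 1.86 and 9.91 CPM in control and at 5.13, 21.9 and 81.7 CPM in double-mutant glands. These values overlapped, and 81.1% of its UMIs in double-mutant glands were in basal-like cells. Among 9 tested genes of the BMP response the median was 1.01. Id2, a target of Smad signaling that holds back differentiation factors, went the other way, at 301, 671 and 792 CPM in control and 181, 323 and 394 CPM in double-mutant glands (log2 difference -1.03 ± 0.25, adjusted p = 0.083). Smad5 and the inhibitory Smad7 had log2 differences of 1.01 ± 0.26 and 1.28 ± 0.35 (adjusted p = 0.0873 and 0.0945).

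**Figure D1:**
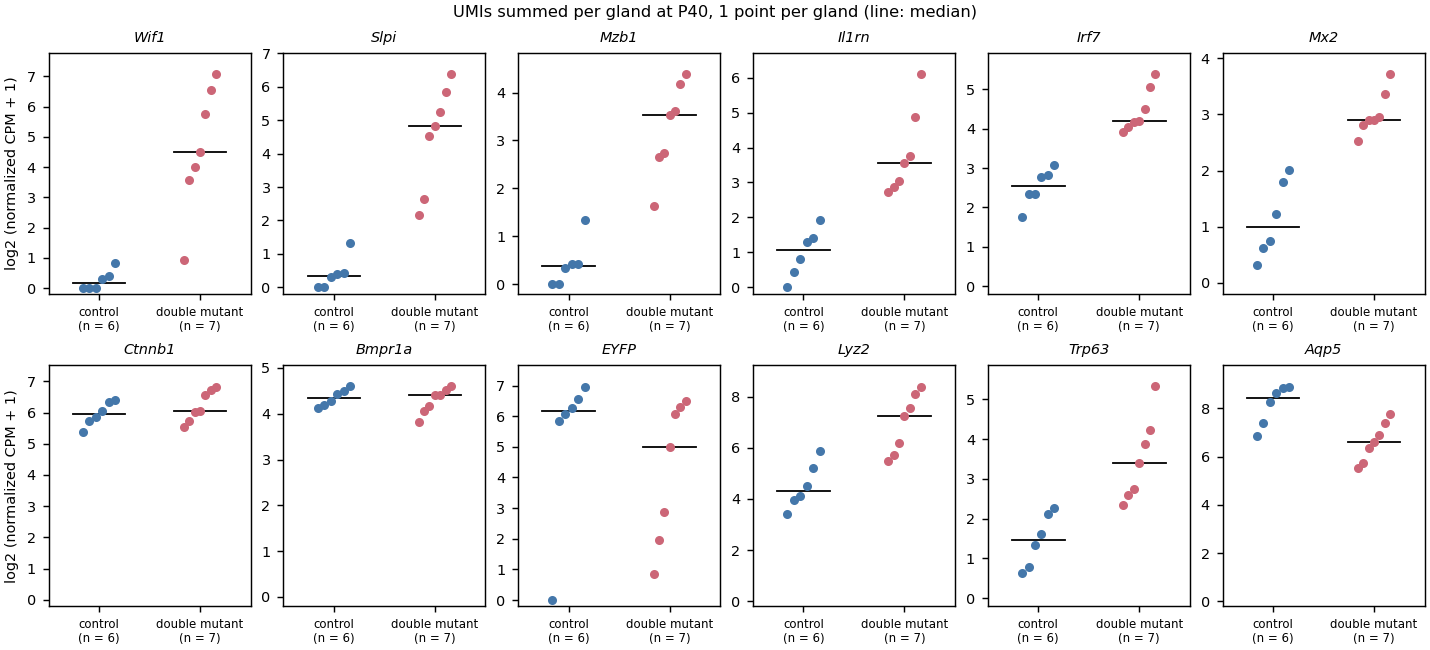
Levels of 12 genes in UMIs summed per gland, with 1 point per gland, as log2 of TMM-scaled CPM plus 1 on the vertical axis, by genotype (6 control and 7 double-mutant glands, line at the median). The double-mutant points of Wif1, Slpi, Mzb1, Il1rn, Irf7 and Mx2 all lie above the control points, those of Ctnnb1, Bmpr1a, EYFP, Lyz2 and Aqp5 overlap, and 1 control gland has no EYFP.

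Genes of antibody-secreting cells had the highest median of all lists. Of 6 tested genes of the B and plasma cell list, 2 were called higher by edgeR (beside 0.164% of all tested genes) and the median log2 difference was 5.15. Mzb1, which helps antibody assembly in plasma cells, was at 0, 0.304 and 1.52 CPM in control and 2.11, 10.6 and 19.9 CPM in double-mutant glands. No double-mutant gland overlapped the controls (log2 difference 4.63 ± 0.64, adjusted p = 0.00617). Iglc2 (chr16:19198536-19198852, mm10), a light chain constant gene, was at 0 to 1.01 CPM and 3.17 to 104 CPM (6.85 ± 1.24, adjusted p = 0.0463), and it has near-identical neighbors between which reads may be split. Igkc, the kappa constant gene, was at 1.20, 7.33 and 359 CPM in control and 445, 1314 and 3294 CPM in double-mutant glands without overlap, and did not pass (5.20 ± 1.18, adjusted p = 0.0721).

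Slpi (chr2:164354070-164356507, mm10) and Ly6c2, a surface protein of monocytes and of some lymphocytes, moved with these genes. Slpi was at 0, 0.274 and 1.52 CPM in control and 3.44, 27.6 and 81.6 CPM in double-mutant glands (log2 difference 6.27 ± 0.89, adjusted p = 0.00693). It passed in all 13 fits that left out 1 gland, as did Ftl2 and Gdpd3, while Mzb1 passed in 7 of 7 that could test it, Ly6c2 in 4 of 7, Iglc2 in 6 of 13 and Il1rn in 7 of 13. Ly6c2 was at 0, 0.507 and 1.90 CPM and 1.85, 14.2 and 23.7 CPM, so that 1 double-mutant gland overlapped the controls (3.93 ± 0.63, adjusted p = 0.0173). The class of cells with immunoglobulin transcripts, 0.975% of double-mutant cells, held 99.1% of the Mzb1, 96.1% of the Iglc2, 85.8% of the Slpi and 77.1% of the Ly6c2 UMIs of double-mutant glands. Mzb1 and Iglc2 are markers that named this class, and none of these 4 genes was held out of the clustering. These shares thus follow in part from how the class was formed.

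Myeloid and inflammatory genes were higher on the log2 scale in nearly all cases, but few passed the test. All 20 tested macrophage and myeloid genes had positive log2 differences (median 1.79), of which Ly6c2 was called. Lyz2, the lysozyme of macrophages, was at 9.51, 18.98 and 57.9 CPM in control and 43.8, 153 and 338 CPM in double-mutant glands, with 97.3% of its double-mutant UMIs in immune-like cells (log2 difference 2.64 ± 0.55, adjusted p = 0.0595). The 6 genes of MHC class II presentation had a median of 1.77, with 0 calls by edgeR and 3 by DESeq2. Of 19 chemokines and complement genes edgeR called 0 and DESeq2 9 (median 1.61). The monocyte attractant Ccl7 (2.79 ± 0.53, adjusted p = 0.0524) and Ccl6 (3.47 ± 0.71, adjusted p = 0.0595) did not overlap between the genotypes, and immune-like cells held 81.6% and 94.7% of their UMIs. Il1rn (chr2:24336860-24351491, mm10), in no list, was at 0, 1.10 and 2.77 CPM in control and 5.65, 10.9 and 67.5 CPM in double-mutant glands (4.14 ± 0.68, adjusted p = 0.0196), with 93.4% of its UMIs in immune-like cells. None of the 6 tested T and NK genes was called (median 1.05).

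Interferon-induced genes were among those that rose. All 16 tested members of the interferon-stimulated list had positive log2 differences (median 1.76), 1 passed, and 3 did not overlap between the genotypes, beside 0.688% of all tested genes with every double-mutant gland above every control gland. The summed level of the list was 352, 610 and 937 CPM in control and 839, 1260 and 1709 CPM in double-mutant glands. The called member was Irf7 (chr7:141263183-141266499, mm10), a transcription factor that amplifies the type I interferon response. It was at 2.40, 4.94 and 7.39 CPM in control and 13.97, 17.3 and 40.7 CPM in double-mutant glands (2.16 ± 0.32, adjusted p = 0.00956). Usp18, which restrains interferon receptor signaling, did not overlap but did not pass (2.03 ± 0.39, adjusted p = 0.0524).

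The interferon-induced genes Mx2 and Ifi44 and the galectin-3-binding protein Lgals3bp, in no list, rose too. Without 1 gland, Mx2 passed in 4, Ifi44 in 5 and Lgals3bp in 5 of 13 fits, and none of these 3 passed in batches B12 to B14 (adjusted p = 0.482 each by edgeR). Irf7 passed in 12 of 13. Mx2, which RefSeq lists as a transcribed pseudogene, was at 0.240, 1.01 and 3.05 CPM in control and 4.76, 6.48 and 12.2 CPM in double-mutant glands (2.41 ± 0.44, adjusted p = 0.0485). Log2 differences of Ifi44 and Lgals3bp were 2.13 ± 0.38 (adjusted p = 0.0370) and 1.42 ± 0.27 (adjusted p = 0.0487), both without overlap. No single class held most of the UMIs of these genes in double-mutant glands. Immune-like cells held 26.3% of Irf7, 34.8% of Ifi44 and 25.1% of Lgals3bp, and acinar-like cells 21.2% of Mx2.

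Genes of matrix and stroma had positive log2 differences without calls by edgeR. Of 30 tested genes of epithelial-mesenchymal transition and matrix all 30 were positive (median 1.504), and none passed. Mmp2, a matrix metalloproteinase, was at 0.673, 2.18 and 4.57 CPM in control and 5.29, 8.44 and 14.6 CPM in double-mutant glands without overlap (1.86 ± 0.37, adjusted p = 0.0571), with 84.7% of its UMIs in fibroblast-like cells. The proteoglycan Bgn (2.28 ± 0.48, adjusted p = 0.0597) and the collagen Col1a1 (1.76 ± 0.37, adjusted p = 0.061) had 73.8% and 96.4% of their UMIs there. The 10 fibroblast genes (median 1.19) and the 15 endothelial genes (median 1.32) were all positive, and edgeR called none. DESeq2 called 4 fibroblast and 1 endothelial gene, 14 genes of the matrix list, 14 of the interferon list and 15 of the myeloid list higher. Over all 9735 tested genes it made 619 calls in either direction, and 1 of 15 endothelial genes is near that share.

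Epithelial lists held 1 gene called by edgeR, Wif1. Of 11 basal keratinocyte genes none passed (median 1.23), and Trp63, the master regulator of basal cells, was at 0.544, 1.79 and 3.81 CPM in control and 4.07, 9.54 and 39.1 CPM in double-mutant glands without overlap (2.72 ± 0.56, adjusted p = 0.0595). Of 17 acinar secretory genes 15 had negative log2 differences (median -1.09), and the water channel Aqp5 was at 116, 348 and 479 CPM in control and 45.1, 97.0 and 215 CPM in double-mutant glands (-1.497 ± 0.40, adjusted p = 0.0941). The sodium-potassium-chloride cotransporter Slc12a2, which drives fluid secretion, did not overlap, at 361 to 595 CPM and 126 to 354 CPM (-0.88 ± 0.25, adjusted p = 0.108). Duct secretory genes were negative in 22 of 25 cases (median -0.56) with no call, and the smallest p was that of the kallikrein Klk1b5 (-1.47 ± 0.58, adjusted p = 0.169), one of a family of near-identical genes. Of 12 genes named by the study for tumor epithelium, 10 were tested and Wif1 was called (median 2.13), but the study chose that list on these samples, so it is no independent evidence. Clu, a secreted chaperone of that list, was at 12.8, 19.6 and 52.2 CPM in control and 44.1, 95.0 and 408 CPM in double-mutant glands (2.49 ± 0.58, adjusted p = 0.0788), and 50.6% of its double-mutant UMIs were in ductal Duoxa2-like cells.

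Of 15 secreted antimicrobial and barrier genes Slpi alone was called (median 0.36). Reg3g, a lectin that kills bacteria, had no UMI in control glands and 170 in double-mutant glands, 72.4% of them in ductal Duoxa2-like cells, so its level was at least 50.6-fold higher (against a floor of 3 counts over the control group), and it did not pass (adjusted p = 0.0929). The imprinted growth genes were positive in 7 of 7 cases (median 1.07), led by Meg3, an imprinted non-coding RNA, at 1.90 to 13.2 CPM in control and 13.8 to 61.0 CPM in double-mutant glands (2.003 ± 0.44, adjusted p = 0.0645). Proliferation genes had a median of 0.79, with Top2a and Mki67 at 1.39 ± 0.36 and 1.43 ± 0.38 (adjusted p = 0.0871 and 0.093). Medians nearer to 0 were found for 22 immediate early and heat shock genes (0.20), 41 genes of oxidative phosphorylation (-0.13), 26 of the secretory pathway and unfolded protein response (-0.24), 15 of glycolysis (0.05), 11 luminal keratins and junctions (0.01) and 10 myoepithelial and smooth muscle genes (0.54), none with a call. Scaling by library totals turned the medians of oxidative phosphorylation (0.49), of the secretory pathway (0.52) and of nerve and glia (0.585) positive. In batches B12 to B14 the medians of luminal keratins and junctions (-0.18), glycolysis (-0.03) and myoepithelial and smooth muscle genes (-0.07) were negative. Other medians moved both ways there, such as T and NK (0.28), basal keratinocyte (0.64) and endothelial genes (1.99). Lists with few tested members were erythroid (2 genes, median 2.05), nerve and glia (2 genes, -0.24) and adipocyte and skeletal muscle (1 gene, 0.57), also without a call.

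Among the remaining called genes, Gdpd3 (chr7:126766414-126775645, mm10), a phosphodiesterase of lysophospholipids, was at 0, 0.136 and 0.616 CPM in control and 4.94, 8.84 and 39.98 CPM in double-mutant glands (5.68 ± 0.64, adjusted p = 0.00125). Of its double-mutant UMIs 41.3% were in immune-like and 22.8% in endothelial-like cells. Ftl2, a ferritin light chain-like gene whose reads may belong to a near-identical copy, was at 0 to 0.924 CPM and 9.20 to 75.7 CPM (6.53 ± 0.68, adjusted p = 0.000975). Olfml2a, a matrix glycoprotein, rose by 3.14 ± 0.59 (adjusted p = 0.0487) and passed in 3 of 7 fits without 1 gland. Of the 17 genes, 4 carry names of clones, predicted genes or cDNAs, and 1110008F13Rik among them was the one that fell, from 41.9, 64.2 and 78.4 CPM to 18.5, 26.5 and 37.2 CPM without overlap (-1.23 ± 0.23, adjusted p = 0.0485). It passed in 4 of 13 fits without 1 gland.

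**Figure D2:**
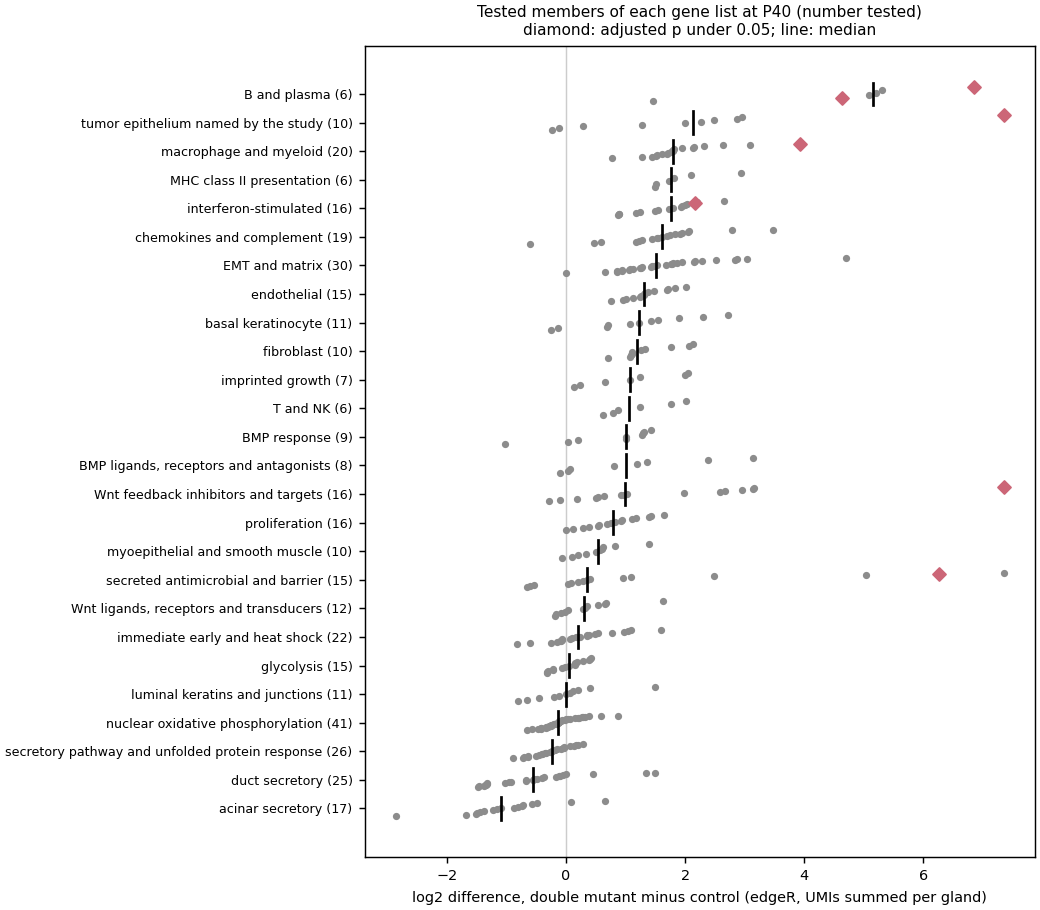
Log2 differences (double-mutant minus control, horizontal axis) of the tested members of each gene list, with 1 point per gene, a line at each list's median and red diamonds for genes with adjusted p under 0.05. The medians run from -1.09 for 17 acinar secretory genes to 5.15 for 6 B and plasma cell genes, and 7 diamonds mark 6 genes, since Wif1 is in 2 lists. Lists with fewer than 3 tested members are not drawn.

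The next comparison asked whether the genotypes differed in the cell classes of their glands. A larger share was found for 3 classes in double-mutant glands: cells with immunoglobulin transcripts, cells with the oxidase factor Duoxa2, and fibroblasts. The Duoxa2 class also had the markers listed for luminal Clu cells, a population that the study found to be tumor-specific. Basal-like and immune-like cells had higher and acinar-like cells lower mean shares without passing the threshold, although a binomial mixed model passed all 3 (adjusted p = 0.00317, 0.00288 and 0.0216). Cells of the 13 glands fell into 26 clusters that were joined into 17 classes by their markers, with the Wnt, BMP, matrix, tumor epithelium, immediate early and sex genes, EYFP and Cre held out of the clustering. Mean shares were compared by a two-sided exact permutation test over all 1716 arrangements of the glands, adjusted over 17 classes.

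Ig-producing-like cells made up 0%, 0% and 0.117% of the cells in the lowest, median and highest control gland and 0.299%, 0.774% and 1.74% in the double-mutant glands, with no overlap. In 4 control glands no such cell was found, which allows shares of up to 0.262% to 0.374% (3 cells of the total). The mean share rose from 0.0353% ± 0.0551 to 0.985% ± 0.576 (p = 0.00175, adjusted p = 0.0198, exact permutation test). The ductal Duoxa2-like class was named by 3 markers, Duoxa2, Duox2 and Pglyrp1, and had Clu, Krt19 and Ltf among its leading genes. It also reached 6 markers listed for luminal Clu cells (Clu, Wfdc18, Krt8, Krt18, Elf3 and Nupr1). Its name therefore does not tell normal duct cells from luminal Clu tumor cells. Ductal Duoxa2-like cells made up 0.284%, 0.472% and 1.25% against 1.25%, 2.51% and 5.97% of the cells. The groups met without overlapping, and the mean share rose from 0.577% ± 0.350 to 2.84% ± 1.65 (p = 0.00233, adjusted p = 0.0198, exact permutation test). Fibroblast-like cells rose from 0.682% ± 0.471 to 2.49% ± 1.14 (p = 0.00816, adjusted p = 0.0462, exact permutation test), with overlapping glands.

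Acinar-like cells were 26.7%, 44.7% and 71.4% of the cells of control glands and 9.15%, 25.5% and 48.4% of those of double-mutant glands. Their mean share was 46.1% ± 15.7 and 26.6% ± 13.2 (p = 0.0315, adjusted p = 0.0892, exact permutation test). Basal-like cells, with Krt5, Krt14 and Trp63 among their markers, took 2.19% ± 2.13 and 8.27% ± 5.12 (adjusted p = 0.0644, exact permutation test), and immune-like cells 4.003% ± 3.18 and 12.3% ± 8.14 (adjusted p = 0.0773). Immune-like shares were highest in double-mutant replicates 2 and 5, the libraries with the lowest totals. Endothelial-like, T/NK-like, myoepithelial-like, luminal Dcpp-like, ductal Klk1/Egf-like, ductal progenitor-like and ductal Smgc/Esp4-like cells and 4 unnamed clusters were not called, with adjusted p between 0.139 and 0.859.

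In batches B12 to B14 alone, with glands permuted within batches, the differences of the mean shares were 1.09 percentage points for Ig-producing-like, 2.14 for ductal Duoxa2-like and 1.31 for fibroblast-like cells. Each had p = 0.0278, the smallest that the 36 arrangements of this exact permutation test can give, and adjusted p = 0.157, so the design cannot reach the threshold there. For acinar-like cells the same exact permutation test gave a difference of -20.1 percentage points (p = 0.0556). Without double-mutant replicate 1 the same 3 classes were called. Without double-mutant replicate 3, whose acinar-like share was the highest of its group, 7 classes were called. Without control replicate 1, 3, 4, 5 or 6 none was.

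**Figure D3:**
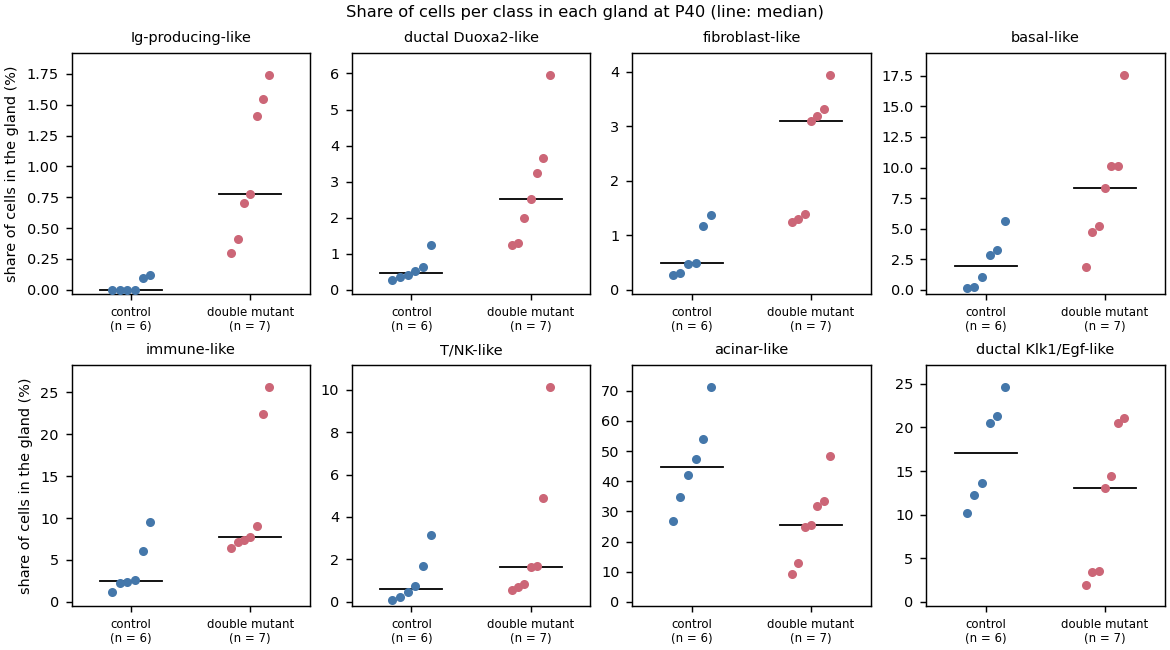
Share of the cells of each gland in 8 classes (vertical axis, percent), with 1 point per gland and a line at the median, for 6 control and 7 double-mutant glands. The points do not overlap for Ig-producing-like or for ductal Duoxa2-like cells, and they overlap for fibroblast-like, basal-like, immune-like, T/NK-like, acinar-like and ductal Klk1/Egf-like cells.

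The bar plot of UMIs by class shows where the transcripts above were counted. Wif1, Sostdc1 and Trp63 were mostly in basal-like cells, the antibody genes, Slpi and Ly6c2 in Ig-producing-like cells, Il1rn in immune-like cells, Mmp2 and Bgn in fibroblast-like cells, and Clu in ductal Duoxa2-like cells. Irf7, Ifi44, Lgals3bp and Mx2 were spread over most classes. Trp63, Mzb1 and Iglc2, like Lyz2 above, are markers that named their classes, so their shares follow in part from the naming.

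**Figure D4:**
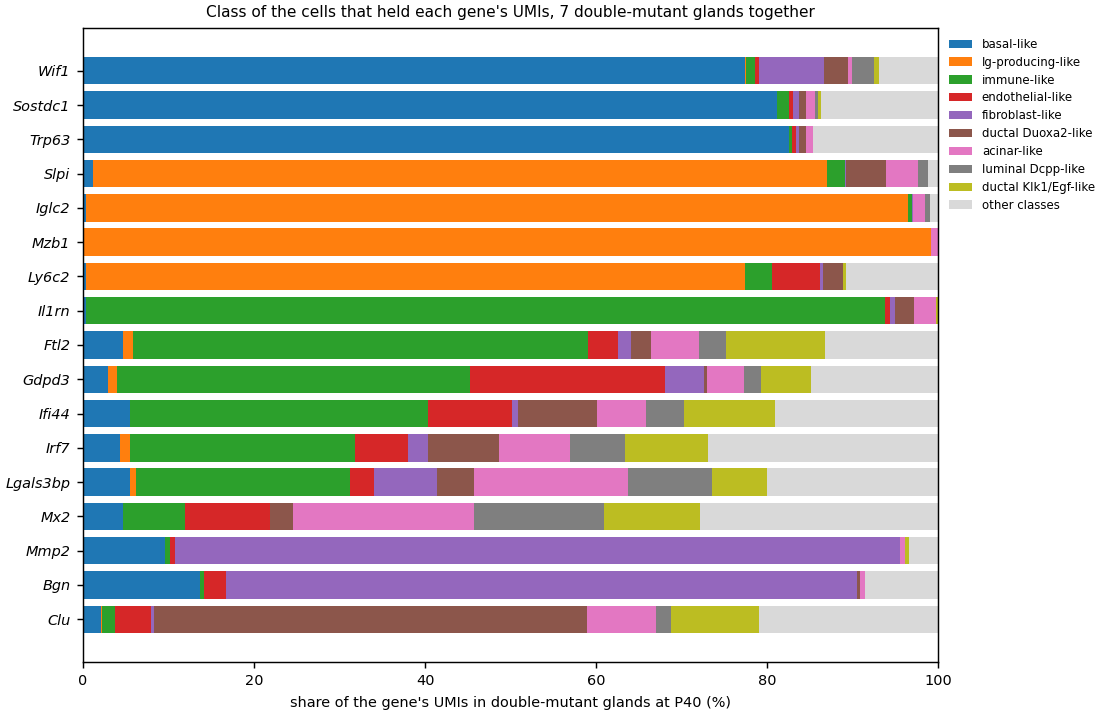
Share of each gene's UMIs by cell class (horizontal axis, percent), over the 7 double-mutant glands together, with a color for each of 9 classes and gray for the others. Basal-like cells hold 77.4% of the Wif1 UMIs, Ig-producing-like cells 99.1% of the Mzb1 UMIs and fibroblast-like cells 84.7% of the Mmp2 UMIs.

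The third comparison asked which genes differed between the genotypes within a class. Interferon-induced genes rose in 3 epithelial classes: Ifitm3 in acinar-like and luminal Dcpp-like cells, Ifi27l2a in both, and Isg15 in ductal Klk1/Egf-like cells. The part of free RNA from other cells in these rises was not tested. Acinar-like cells of double-mutant glands had less of the metabolic enzymes Aldh1a7 and Ggh. Basal-like cells had more of the stress-induced genes Hspa1a and Dusp1 and of S100a6, a calcium-binding protein. UMIs were summed per gland and class, glands with at least 10 cells of a class were used, and 9 classes had at least 4 such glands of each genotype. Calls per class by edgeR's quasi-likelihood test were 13 higher (0.309%) and 6 lower (0.143%) of 4208 genes in acinar-like, 3 higher (0.352%) of 852 in basal-like, 2 higher (0.0606%) and 3 lower (0.091%) of 3298 in ductal Klk1/Egf-like, 6 higher (0.279%) of 2148 in luminal Dcpp-like, and 16 higher (1.54%) and 30 lower (2.88%) of 1041 in immune-like cells. In endothelial-like, myoepithelial-like, ductal progenitor-like and ductal Smgc/Esp4-like cells edgeR made 0 calls, with 66, 45, 42 and 59 genes at an unadjusted p under 0.05 and 0, 2, 2 and 3 calls by DESeq2. With batch as a covariate, 1 gene each was called in ductal Klk1/Egf-like, ductal progenitor-like and immune-like cells and none in the other 6 classes. Leaving out 1 gland gave 1 (without double-mutant replicate 6) to 48 calls (without double-mutant replicate 3) in acinar-like and 1 (without control replicate 6) to 10 calls (without control replicate 2) in luminal Dcpp-like cells.

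The sequence just upstream of 3 genes that rose within epithelial classes is shown because each holds the letters of an interferon-stimulated response element. Isg15 encodes a ubiquitin-like protein, B2m the light chain of MHC class I molecules, and Gbp7 a guanylate-binding protein. Each run gives the 250 bases before the gene's start from RefSeq (GRCm38.p6, the patch release of mm10), 5′ to 3′ on the gene's strand, and capitals mark a pair of GAAA, or on the other strand of TTTC, with 2 bases of any kind between them, overlapping matches joined. Isg15 is at chr4:156200819-156201068 (minus strand), B2m at chr2:122147437-122147686 (plus strand) and Gbp7 at chr3:142530086-142530335 (plus strand).
Isg15: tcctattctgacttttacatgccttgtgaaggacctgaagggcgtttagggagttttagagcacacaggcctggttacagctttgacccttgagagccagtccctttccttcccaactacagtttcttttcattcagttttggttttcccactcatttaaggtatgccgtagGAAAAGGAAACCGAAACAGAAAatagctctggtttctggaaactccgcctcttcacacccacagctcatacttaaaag
B2m: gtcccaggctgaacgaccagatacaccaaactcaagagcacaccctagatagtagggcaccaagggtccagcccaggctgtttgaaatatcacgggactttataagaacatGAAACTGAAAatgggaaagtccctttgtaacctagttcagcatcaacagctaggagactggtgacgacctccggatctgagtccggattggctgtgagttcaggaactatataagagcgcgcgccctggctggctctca
Gbp7: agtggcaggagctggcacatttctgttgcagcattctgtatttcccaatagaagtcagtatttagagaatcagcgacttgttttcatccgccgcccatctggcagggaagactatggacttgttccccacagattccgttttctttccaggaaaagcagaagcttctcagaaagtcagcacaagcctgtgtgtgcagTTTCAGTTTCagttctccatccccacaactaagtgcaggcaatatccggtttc
These letters occurred in 2.98% of all 32851 RefSeq windows of that length. Of 24 genes named within a class, 14 had a window and 3 held the letters, and of the interferon-stimulated list 8 of 13 genes with a window did. CTTTGA or TCAAAG, the core letters of TCF/LEF sites, occurred in 13.8% of all windows and in 0 of the 9 genes called in whole glands that had a window. The letters of the interferon element were in 0 of these 9 too. A match describes the letters only and shows no binding.

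Within luminal Dcpp-like cells, which secrete Dcpp demilune proteins, 4 control and 5 double-mutant glands had enough cells. Ifitm3, which blocks virus entry, was at 22.5, 27.4, 27.7 and 32.7 CPM of the class in control and at 75.2, 89.9, 117, 130 and 132 CPM in double-mutant glands, with no overlap (log2 difference 2.05 ± 0.24, adjusted p = 0.000137). Its mean levels in endothelial-like and basal-like cells, given below, were far higher, and the part of free RNA in this difference was not tested. B2m was at 113, 133, 139 and 147 CPM and 262, 296, 387, 427 and 663 CPM, also without overlap (1.59 ± 0.27, adjusted p = 0.00734). Ifi27l2a, an interferon-induced mitochondrial protein, and Gbp7 rose by 2.82 ± 0.46 and 1.85 ± 0.32 (both adjusted p = 0.00734). The other called genes were Bcat2, an aminotransferase of branched-chain amino acids, and Rtp4, a receptor transport protein, both higher. Of 4 tested genes of the interferon list in this class 2 were called, with a median log2 difference of 1.72 beside -0.01 for all genes of the class.

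In acinar-like cells Ifitm3 was at 2.20 to 13.5 CPM in control and 20.8 to 75.0 CPM in double-mutant glands (2.32 ± 0.37, adjusted p = 0.00543, median of the 5 tested interferon genes 1.15, 2 of them called). The same gene had mean levels of 1371 and 1269 CPM in endothelial-like and 1664 and 2244 CPM in basal-like cells of control and double-mutant glands, and the part of free RNA from such cells in the acinar-like level was not tested. Ifi27l2a was at 139, 301 and 356 CPM in the lowest, median and highest control gland and 325, 648 and 1359 CPM in double-mutant glands. The groups overlapped (1.54 ± 0.31, adjusted p = 0.0302 by edgeR), and with batch as a covariate the log2 difference was 0.77. Clu was at 0 to 3.25 CPM and 3.47 to 54.6 CPM (4.33 ± 0.57, adjusted p = 0.000706). Most Clu UMIs of double-mutant glands were in ductal Duoxa2-like cells, and the part of free RNA in the acinar-like difference was not tested. Igkc rose by 4.69 ± 0.62 (adjusted p = 0.000706). The B and plasma cell list as a whole made up a median of 0.00525% of the UMIs of acinar-like cells of double-mutant glands, near the 0.0069% of basal-like and the 0.00594% of ductal Klk1/Egf-like cells, and the part of free RNA in the Igkc difference was not tested. Gm21718, a predicted gene, rose by 4.77 (adjusted p = 0.00459).

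The genes that fell in acinar-like cells were led by Aldh1a7, an aldehyde dehydrogenase, at 15.4, 20.9 and 33.1 CPM in control and 2.60, 4.20 and 15.004 CPM in double-mutant glands (-1.47 ± 0.29, adjusted p = 0.0216). The groups did not overlap. Ggh, a hydrolase of folate polyglutamates, was at 105 to 157 CPM and 32.3 to 96.1 CPM (-0.89 ± 0.19, adjusted p = 0.0337), 1110008F13Rik fell by 0.99 on the log2 scale as it did in whole glands, and Rab24, a small GTPase, fell by 1.08. Aqp5, a marker of this class, also fell by 0.87. Acinar-like cells came from 8 clusters, of which the largest held 618 of 2680 control and 530 of 1785 double-mutant cells. Another held 431 control and 125 double-mutant cells, so a class level mixes these clusters in different parts.

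Within basal-like cells 4 control glands with 113 cells and 7 double-mutant glands with 502 cells were compared. Hspa1a, a heat shock chaperone, was at 28.8, 37.8, 57.7 and 325 CPM in control and 357, 729 and 1428 CPM in the lowest, median and highest double-mutant gland (3.35 ± 0.58, adjusted p = 0.0453). Dusp1, an immediate early phosphatase that shuts off MAP kinases, was at 192 to 404 CPM and 748 to 1921 CPM (1.75 ± 0.33, adjusted p = 0.0455), and S100a6, of the list of epithelial-mesenchymal transition and matrix, at 541 to 1172 CPM and 1093 to 10684 CPM (2.75 ± 0.54, adjusted p = 0.0455). Hspa1a and Dusp1 did not overlap and S100a6 did. Double-mutant glands also had the higher share of UMIs from immediate early genes given above, and the part of this share in the Hspa1a and Dusp1 levels was not tested. Wif1 and Trp63 had log2 differences of 9.08 ± 1.89 and 2.30 ± 0.49 within the class and did not pass (both adjusted p = 0.0711). Clustering at resolution 1.5 split 63 of the 502 double-mutant basal-like cells into a CSC-like class (cancer stem cells). Its markers were the Wnt pathway genes Axin2, Lef1, Wif1 and Notum and others, and S100a6 was among its leading genes. These cells came from 6 double-mutant glands (0% to 2.75% of the cells of a gland), and 0 of 5756 control cells were in the class, which allows a share of up to 0.0521%. They held 15.01% of the Wif1 UMIs of double-mutant glands, and the other basal-like cells 62.4%. Without them no gene was called by edgeR in basal-like cells (127 at an unadjusted p under 0.05), and the log2 differences of Hspa1a, Dusp1 and S100a6 were 3.44, 1.83 and 1.67. No gene was called in basal-like cells without double-mutant replicate 2, 4 or 6 or control replicate 2 or 6, and 26 were called without double-mutant replicate 3.

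Ductal Klk1/Egf-like cells joined a cluster led by kallikreins and one with Ren1 among its markers, and the latter held 354 of 971 control and 115 of 749 double-mutant cells, so the mix differed between the genotypes. In this class Isg15 was at 3.13, 9.04 and 20.2 CPM in control and 28.2, 40.9 and 84.1 CPM in double-mutant glands without overlap (2.31 ± 0.40, adjusted p = 0.015). Ftl2 rose by 5.67 ± 0.59 (adjusted p = 1.27e-05), with no UMI in 5 of 6 control glands. Pttg1, the securin of chromosome separation, was at 53.2 to 158 CPM and 0 to 49.4 CPM (-1.90 ± 0.34, adjusted p = 0.015). The secretory transcripts Mup5 and Mucl1, which are leading genes of acinar-like cells, fell by 2.65 and 1.85 on the log2 scale. UMIs of the acinar secretory list were 5.20% and 1.20% of all UMIs of the class in the median control and double-mutant gland, and the part of free acinar RNA in these falls was not tested. No gene of the class was called by edgeR with at least 20 cells per gland or without double-mutant replicate 1, 2, 4, 5, 6 or 7, and Isg15 also did not pass without control replicate 2, 3, 5 or 6. DESeq2 gave no adjusted p for the 5 genes (unadjusted p of Isg15 1.05e-06) and called 19 others.

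Immune-like cells had the most calls, but 3 were left with at least 20 cells per gland, 2 to 22 without double-mutant replicate 1, 2, 5, 6 or 7 or control replicate 3, 4, 5 or 6 (the lowest without control replicate 4), and 70 and 88 without double-mutant replicate 3 and control replicate 1. Il1rn was at 0 to 187 CPM of the class in control and 182 to 771 CPM in double-mutant glands (2.62 ± 0.44, adjusted p = 0.00807), and Psap, a lysosomal saposin precursor, and Mdm2, which targets p53, rose by 1.04 ± 0.23 and 1.42 ± 0.33. Ftl2 was at 0 to 31.6 CPM and 116 to 674 CPM (5.08 ± 0.65, adjusted p = 0.000456). The falls with the smallest p were those of acinar transcripts: Mup5 (-3.30), Mucl1 (-2.92), Slc12a2 (-2.31) and Cldn10 (-3.11). Of 9 tested acinar secretory genes 5 fell in immune-like cells, and UMIs of that list were 3.32%, 14.9% and 26.8% of all UMIs of these cells in the lowest, median and highest control gland and 0.246%, 2.73% and 15.3% in double-mutant glands. The share of acinar-like cells was lower in the same glands, and the part of free acinar RNA in these falls was not tested. None of the 17 tested myeloid and the 6 tested MHC class II genes was called within immune-like cells (medians 0.44 and 0.35, beside 0.07 for all genes of the class).

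**Figure D5:**
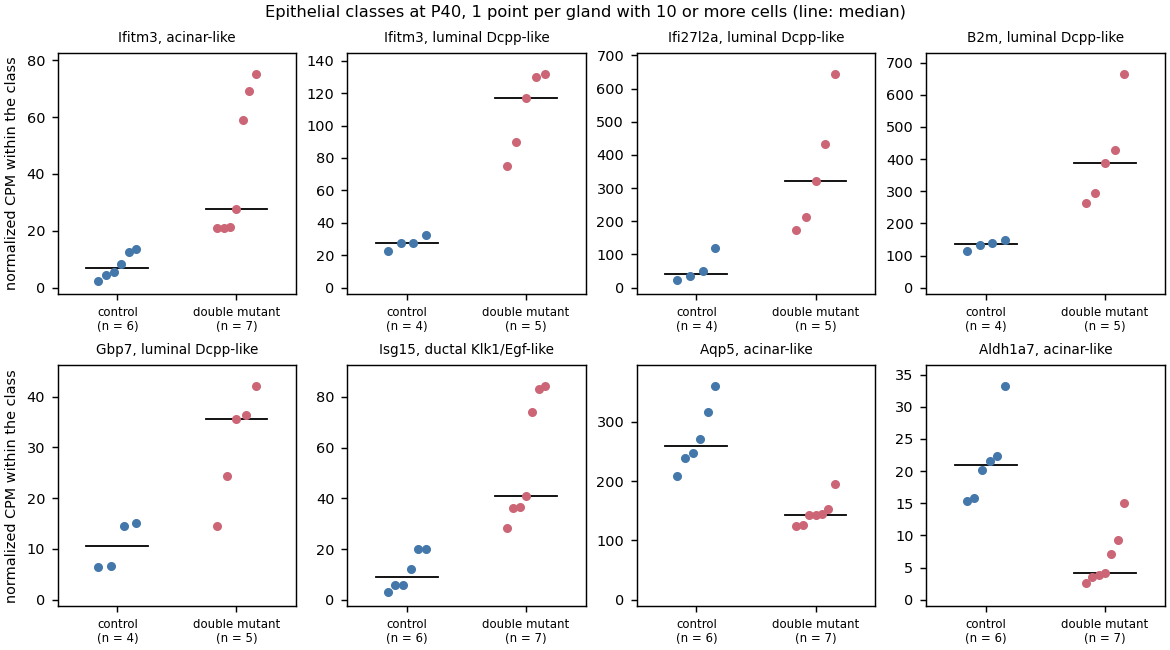
Levels of 7 genes within epithelial classes (vertical axis, TMM-scaled CPM of the class), with 1 point per gland that had at least 10 cells of the class and a line at the median. In luminal Dcpp-like cells Ifitm3, Ifi27l2a and B2m of all double-mutant glands lie above all control glands, and Gbp7 overlaps. In acinar-like cells Ifitm3 lies above and Aqp5 and Aldh1a7 lie below all control glands, and in ductal Klk1/Egf-like cells Isg15 lies above them. Ifi27l2a of acinar-like cells, which overlaps, is not drawn.

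The last comparisons asked whether the differences at P40 depended on stage or sex. Of the 17 genes called at P40, 7 (Gdpd3, Ifi44, Il1rn, Irf7, Lgals3bp, Mx2 and Slpi) were also higher in every one of 7 double-mutant glands at P90 than in any of 6 control glands at that stage, and 10 overlapped. The share of all genes without overlap at P90 was not computed, so this count has no background beside it. Slpi reached 32.8, 99.8 and 404 CPM in double-mutant glands at P90, against 0, 9.87 and 14.2 CPM in control glands, and Wif1 0.429, 40.2 and 219 CPM against 0, 0 and 2.14 CPM, with overlap. The genotype by stage interaction over all 26 glands called 1 of 8768 genes (0.0114%), the clone transcript RP24-89H23.2, whose genotype difference was lower at P90 than at P40 by 4.62 on the log2 scale. At an unadjusted p under 0.05 there were 496, and DESeq2 called 5. For the genotype by sex interaction at P40 edgeR's quasi-likelihood test called 0 of 9735 genes, with 170 at an unadjusted p under 0.05 and 0 by DESeq2.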

How the data were processed

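Drop-seq libraries of 13 P40 glands (7 double-mutant, 6 control) were analysed, grouped by the titles. The authors processed the reads with Drop-seq tools (processing notes name STAR) on mm10 with GENCODE vM7, Cre and EYFP added, kept barcodes above the knee, and deposited raw UMI counts for each gene and barcode. Barcodes with at least 100 genes and under 15% mitochondrial UMIs were kept (12117), and summed over each gland, or over each class within a gland. Doublets were not removed computationally. The gland was the replicate, and the labels do not state litters.

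Sums were compared with edgeR 4.0.16 (TMM, filterByExpr, quasi-likelihood test, covariate sex, Benjamini-Hochberg, threshold 0.05) with DESeq2 1.42.0 as an alternative. SE is the log2 difference divided by the square root of F. Floors cover counting error only. Cells were clustered with scanpy 1.11.5 and leidenalg 0.10.2 (2000 variable genes, 30 components, 20 neighbors, resolution 1). A cluster took the name of a marker list when at least 3 of its markers reached 2-fold and 10% of the cells. The list also needed a marker among the cluster's 10 leading genes, and no other list could have more there. Clusters with at least 3 proliferation genes among those 10 stayed unnamed. On simulated counts for the 9735 genes, 34%, 94%, 98% and 100% of genes changed 2-, 4-, 8- and 16-fold were recovered, with 6 false calls. The simulation gave each gene the same scaled mean in all glands of a genotype, without batches or differences in cell composition. These rates therefore do not give the power in the real glands. Replicate numbers did not pair glands.

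Genes were named by rule: the targets, called genes with a mean of at least 10 CPM and no overlap (8 per direction), 3 per list by p and 4 per class and direction. The text prints some of these genes, and 1 is not reported here. Other called genes were chosen after their values were seen. Glands, lists and rules were chosen with earlier results of these data known. Alternatives were other scaling, filters, batch terms, blocks, thinning, left-out glands and a binomial mixed model (lme4 1.1.37). Sequences came from RefSeq (GRCm38.p6). P90, CITE-seq and bulk samples entered only where stated.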

Additional observations from a re-analysis of the deposited data

Results flagged for a closer look

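In groups of 6 or 7 glands, 31 of 179 sets of values had 1 gland far from the others by Dixon's criterion. Its rate of about 1 set in 20 by chance holds for normal, independent values. The CPM and percents here were not transformed and share glands, so this count cannot be set against that rate. Double-mutant replicate 2 stood highest in its group for the myeloid and antigen presentation genes Cd74 (2480 CPM), H2-Ab1 (1006 CPM) and H2-Eb1 (443 CPM), the T cell chemokine Ccl5 (137 CPM), the basal genes Krt17 (99.7 CPM) and Trp63 (39.1 CPM), Fst (43.9 CPM) and Gdpd3 (39.98 CPM), as well as for the share of myoepithelial-like cells (5.77%) and of ribosomal UMIs (7.93%). Double-mutant replicate 5 was highest for Il1rn (67.5 CPM), Itgam (26.02 CPM), Smad5 (21.1 CPM) and the share of the cluster led by Rn7sk (12.6%). Double-mutant replicate 3, labelled male, was highest for the granular duct gene Klk1b5 (864 CPM) and for the median of UMIs per cell (4036). Double-mutant replicate 6 was highest for Reg3g (32.7 CPM) and Nkd1 (20.7 CPM), and replicate 7 for the share of the cluster led by Muc19 (10.4%).

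Among control glands, replicate 1 was highest for Ccl5 (30.5 CPM), RP24-352B14.1 (14.1 CPM), Ifi44 (7.62 CPM), Gm2367 and Olfml2a (1.90 CPM each) and Slpi and Mzb1 (1.52 CPM each). Control replicate 2 was highest for H2-Eb1 (89.6 CPM), Smad7 (16.3 CPM) and Lum (12.3 CPM), replicate 4 for Iglc2 (1.01 CPM) and replicate 6 for the share of ductal Duoxa2-like cells (1.25%).

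The clone transcript RP24-89H23.2 differed in its response between the stages, with an interaction of -4.62 on the log2 scale. At P40 it was at 4.31 to 29.1 CPM in control and 2.44 to 25.1 CPM in double-mutant glands, and at P90 at 27.7 to 60.9 CPM and 0 to 5.15 CPM. No P40 and P90 control glands shared a batch, so stage and batch cannot be told apart there, and the call was lost with batch as a covariate and without P40 control replicate 1, 2, 3, 4 or 6 or P40 double-mutant replicate 1, 2, 4 or 7.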

How the results depend on the processing

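Of 2533 single values under alternatives, 1994 kept direction and side of the threshold, 312 lost and 210 gained a call, and 17 changed sign. The causes were not tested. The 17 genes called in whole glands became 619 with DESeq2 (all 17 among them), 1657 with no filter on low counts, 52 without the sex covariate, 72 in a fit of all 26 glands, 1 after thinning to the smallest total, 0 with batch as a covariate, 4 in batches B12 to B14, 7 without double-mutant replicate 1 and 9 without replicates 2 and 5 (chosen after seeing the data). Leaving out 1 gland gave 6 (double-mutant replicates 5 and 6, control replicate 4) to 267 calls (double-mutant replicate 3), with 250 without control replicate 2 105 without control replicate 1, 35 without double-mutant replicate 4 and 7 to 10 without double-mutant replicate 1 or 2 or control replicate 3, 5 or 6. The fit with the replicate number as a block gave 370 calls, 13 of the 17 among them, but pair correlations ran from -0.18 to 0.49 and 2 of 6 pairs were best matched by their own number, so the numbers do not pair glands.

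Within classes the calls by DESeq2, no filter, batch as a covariate and the replicate block were, against the main count, 59, 151, 0 and 12 (19) in acinar-like, 37, 92, 0 and 17 (3) in basal-like, 19, 38, 1 and 11 (5) in ductal Klk1/Egf-like and 134, 206, 1 and 20 (46) in immune-like cells. In luminal Dcpp-like cells (6) DESeq2, no filter and batch gave 18, 47 and 0. Among the classes with 0 calls, DESeq2, no filter and batch gave 2, 18 and 1 in ductal progenitor-like, DESeq2 and no filter 3 and 11 in ductal Smgc/Esp4-like, no filter and the block 16 and 1 in endothelial-like, and DESeq2, no filter and the block 2, 12 and 3 in myoepithelial-like cells. Without the CSC-like cells of resolution 1.5 (chosen after seeing the data) 0 were called in basal-like cells. With at least 20 cells per gland 9 were called in basal-like, 0 in ductal Klk1/Egf-like and 3 in immune-like cells. Leaving out 1 gland gave 1 to 48 in acinar-like, 0 to 26 in basal-like, 0 to 19 in ductal Klk1/Egf-like, 0 to 4 in ductal Smgc/Esp4-like, 0 to 1 in endothelial-like, 2 to 88 in immune-like, 1 to 10 in luminal Dcpp-like, 0 to 3 in myoepithelial-like and 0 to 0 in ductal progenitor-like cells. Double-mutant replicate 3 gave the highest count in the first 4 of these, the lowest being without double-mutant replicate 6 in acinar-like cells.

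The interaction with stage had 5 calls by DESeq2, 189 with no filter, 0 without the 2 libraries whose sex genes went against their labels, and 0 to 1 without 1 gland. That with sex had 29 with no filter and 0 to 0 without 1 gland. Class shares had 0 calls in batches B12 to B14 and under the replicate block, 8 in the binomial mixed model and 0 to 7 without 1 gland, and gland measures 0 to 2.

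Changes of sign were found for Bmpr1a (0.61 with library totals, 0.23 thinned), and, in percentage points, for ductal Smgc/Esp4-like (-0.21 in batches B12 to B14, -0.0400 without double-mutant replicate 1, -0.0500 without control replicate 5, and up to 0.586 without control replicate 2), ductal progenitor-like (-0.0153 without double-mutant replicate 1, -0.27 without 4, -0.19, -0.0235 and -0.25 without control replicate 3, 4 and 5, and up to 1.08 without control replicate 2), Muc19-led (-0.35 under the block and without double-mutant replicate 7, up to 1.35 without replicate 1) and Top2a-led cells (0.000748 without double-mutant replicates 2 and 5). Median genes per cell changed to 12.3 without double-mutant replicate 5 (-99.25 without replicate 3), and cells per gland to 78.7 with all barcodes. No other call of the genes named changed sign, and shallow glands limit genes of low counts.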
